A study of Mus musculus with 6 samples.

Results

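The genes described here encode brain-derived neurotrophic factor (Bdnf) and neurotrophin-3 (Ntf3), the Trk receptor tyrosine kinases that bind them (Ntrk2, which encodes TrkB, and Ntrk3, which encodes TrkC), and 2 sorting receptors of the Vps10p-domain family, sortilin (Sort1) and Sorcs1. They were selected by gene name and comprise 6 of the 13321 genes in the deposited transcript table. Their 19 listed transcripts are part of 25409 in the table, and 36 protein-coding transcripts of these genes are annotated in GENCODE vM21. Poly(A) RNA of hippocampus from mice of 2 ages was sequenced for an expression comparison between the ages. The young group was 3 months old (3M) and the aged group 22 months old (22M). All animals were male WT mice of the strain C57 BL/6, and the labels name no agent or altered allele. Each group had 3 libraries, named J11, J13 and J15 in 3M and 72, 76 and 78 in 22M. Whether each library was a different mouse is not stated in the labels, and the tests therefore refer to the spread between libraries, which may be technical.

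Neurotrophins are made as precursors that are cleaved before or after secretion. The mature BDNF dimer activates TrkB and mature NT-3 activates mainly TrkC, which then signal through the Ras, phosphoinositide 3-kinase and phospholipase C pathways, whereas the precursors bind a complex of the p75 receptor with sortilin. In the hippocampus BDNF is made chiefly by excitatory neurons and is known for its part in synaptic plasticity. TrkB with its kinase is found mainly in neurons, and the truncated form TrkB.T1, which has no kinase, is abundant in astrocytes.

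Expression was given as FPKM, fragments scaled by transcript length and library size, and a gene value was the sum over its listed transcripts. A change was called at a limma p, adjusted by the Benjamini-Hochberg method over all features, below 0.05, and the cut-offs of the study (unadjusted p below 0.05 and more than 1.5-fold) were counted beside it. Fold changes were computed on log2(FPKM + 0.5) and understate the change of low values. Library values are listed throughout in the order J11, J13, J15 for 3M and 72, 76, 78 for 22M. The sequencing depth is unknown, so no counting interval can be given.

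The library J11 stood apart from the others. The summed level of 12 striatum markers was 1363 FPKM in J11 and 68.4 to 104.2 FPKM in the other 5 libraries, and 11 of the 12 markers were highest in J11. J13 and J15, at 97.5 and 104.2 FPKM, were also above the 22M libraries, at 68.4 to 79.3 FPKM. The median log2 fold change of this list was −1.38, and −0.13 without J11. Adora2a, an adenosine receptor of striatal neurons, was at 55.9 FPKM in J11 and at 0.720 FPKM or less elsewhere. Every member is therefore also given without J11. Markers of hippocampal neurons were present in all libraries, with sums of 107.9 to 138.8 FPKM for the dentate gyrus and 138.0 to 172.1 FPKM for CA1. J11 had the lowest sum on each of these lists. The library 78 stood apart on choroid plexus markers, which summed to 133.6 FPKM there and to 1158 to 2815 FPKM in the other libraries. Several other summed lists separated the ages without overlap. For the counts of called markers below, 0.92% of all genes tested were called higher and 1.21% lower in 22M. Astrocyte markers summed to 851.4 to 858.0 FPKM in 3M and to 887.6 to 1013 FPKM in 22M, although 0 of 12 passed the adjusted test and none was at 0. The list did not move as one. Slc1a2 (150.3 to 218.8 FPKM on average), Gfap (125.8 to 184.3 FPKM), Aqp4 (23.2 to 30.9 FPKM) and Slc4a4 (22.25 to 27.99 FPKM) were higher in every 22M library. Aldh1l1 (11.8 to 7.33 FPKM), S100b (76.7 to 60.2 FPKM) and Aldoc (271.5 to 235.3 FPKM) were lower in every one. Oligodendrocyte markers summed to 1312 to 1387 FPKM in 3M and to 797.7 to 1019 FPKM in 22M, with 6 of 12 called lower. Without J11 0 of 12 were called, while the median log2 fold change of the list was −0.63 against −0.64 with it. The calls over all 13041 genes tested went from 278 to 30. CA3 and CA2 markers were at 523.4 to 718.4 FPKM in 3M and 325.6 to 367.4 FPKM in 22M, with 1 of 10 called lower and 0 without J11. Most of that difference was Pcp4 (496.9 to 247.8 FPKM on average), and the other 9 summed to 102.2 to 129.0 and 93.8 to 98.8 FPKM. Thalamus and habenula markers were at 134.5 to 201.8 FPKM in 3M and 65.8 to 84.2 FPKM in 22M. Of these 16 markers 5 were called lower, 4 without J11, and 0 had a positive log2 fold change. Shox2 (9.52 to 0.183 FPKM on average), Tnnt1 (15.4 to 1.07 FPKM) and Nexn (12.3 to 0.942 FPKM) were among the 5. The separation on this list was therefore not particular to J11, and whether the dissected tissue differed between the ages was not tested. Erythroid markers were higher in 22M (589.5 to 632.9 against 1329 to 2046 FPKM, 5 of 5 tested called). Without J11 1 of 5 was called, while the median log2 fold change of the list was 1.48 with and without J11. Sums for microglia (268.9 to 368.7 against 234.4 to 258.8 FPKM) and oligodendrocyte precursors (126.9 to 150.7 against 103.4 to 122.4 FPKM) were lower, with 0 called. In bulk tissue, fewer cells of a type and less RNA per cell cannot be told apart.

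**Figure D1:**
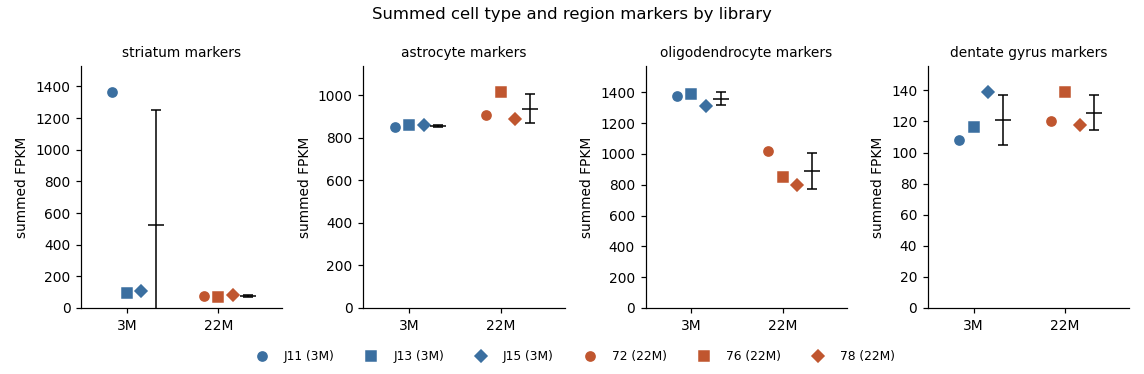
Summed FPKM (vertical axes, from 0) of 4 marker lists in the 6 libraries, with 3M in blue and 22M in orange; the black bar is the mean and its whiskers are the SD of 3 libraries, cut at 0. J11 alone reached 1363 FPKM for the striatum list, whereas oligodendrocyte sums were lower and astrocyte sums higher in all 22M libraries.

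None of the member genes passed the adjusted test between the ages: 0 of 6 were called, against 2.13% of 13041 genes tested (0.92% higher and 1.21% lower in 22M). By the cut-offs of the study 0 of 6 were called as well, against 8.3% of all genes (4.08% higher and 4.22% lower). At an unadjusted p below 0.05 there was 1 of 6, Ntrk2, against 27% of all genes. Ntrk2 was also the one member whose age groups did not overlap, with every 22M library above every 3M library, a pattern of 13.3% of genes. The lowest adjusted p among the members was 0.0886, and without J11 it was 0.0801, again with 0 of 6 called. Without the library 78 it was 0.191, also with 0 of 6, and the log2 fold changes were then 0.11 for Bdnf, 0.0182 for Ntf3, 0.36 for Ntrk2, 0.0143 for Ntrk3, 0.23 for Sort1 and 0.83 for Sorcs1.

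**Figure D2:**
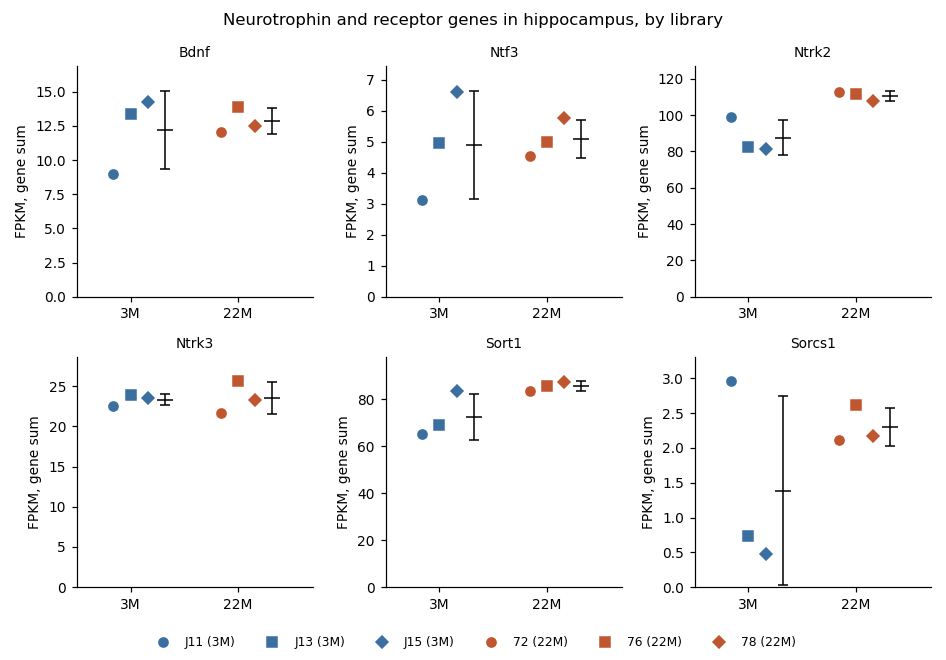
FPKM summed over the listed transcripts (vertical axes, from 0) of the 6 genes in each library, with 3M in blue and 22M in orange; the black bar is the mean and its whiskers are the SD of 3 libraries. Only for Ntrk2 do the colours separate, and J11 (blue circle) is the lowest 3M library for Bdnf, Ntf3, Ntrk3 and Sort1 and the highest for Ntrk2 and Sorcs1.

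Bdnf, on chromosome 2 (GRCm38, chr2:109674700-109727007, plus strand), was at 8.97, 13.4 and 14.3 FPKM in 3M and at 12.1, 13.9 and 12.5 FPKM in 22M. J11 was the lowest of all 6 libraries, and the other 5 lay close together. The group means were 12.2 ± 2.84 (SD, n = 3) and 12.8 ± 0.960 FPKM (SD, n = 3), a log2 fold change of 0.09 with a 95% interval of −0.34 to 0.52 (limma adjusted p = 0.770). Without J11 the log2 fold change was −0.11 (limma adjusted p = 0.600), so its sign rested on that library. The part of the striatal marker level of J11 in this value was not tested.

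Ntf3, which encodes a neurotrophin best known for sensory neurons and made in the adult hippocampus by granule cells, was represented by Ntf3-203 alone (chr6:126101412-126164960, minus strand). It was at 3.13, 4.95 and 6.62 FPKM in 3M and at 4.55, 4.99 and 5.76 FPKM in 22M. The 22M libraries all fell inside the range of the 3M libraries. The log2 fold change of the gene was 0.10 (SE 0.251, limma adjusted p = 0.823) and −0.16 without J11, which was the lowest of the 6 libraries.

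The Bdnf gene has several promoters, each with its own first exon spliced to the common last exon that holds the mature coding sequence. The table listed 5 transcripts from 4 of these first exons, 339 to 640 bases long, numbered here by their order in the annotation: Bdnf-201 from exon I, Bdnf-207 and Bdnf-210 from exon II, Bdnf-209 from exon IV and Bdnf-205 from exon VI. Exons I and IV are the classic activity-dependent starts. The 250 bases upstream of both are shown because the transcripts differ in nothing else than their start and first exon (RefSeq, GRCm38.p6, plus strand, chr2:109674450-109674699 for exon I and chr2:109692186-109692435 for exon IV). Capitals mark the only listed motif found, TCACGTCA, which differs from the full cyclic AMP response element TGACGTCA.
Bdnf exon I: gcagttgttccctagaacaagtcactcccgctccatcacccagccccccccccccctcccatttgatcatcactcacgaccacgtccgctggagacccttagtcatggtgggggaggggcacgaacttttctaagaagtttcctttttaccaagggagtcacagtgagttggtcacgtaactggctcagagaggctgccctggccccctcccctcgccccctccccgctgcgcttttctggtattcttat
Bdnf exon IV: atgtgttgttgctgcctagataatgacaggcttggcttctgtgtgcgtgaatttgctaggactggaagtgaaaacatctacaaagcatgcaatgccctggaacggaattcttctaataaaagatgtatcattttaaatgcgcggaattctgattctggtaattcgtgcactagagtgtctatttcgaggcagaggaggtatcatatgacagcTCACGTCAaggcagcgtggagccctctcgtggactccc
The motif starts 38 bases upstream of the exon IV start and contains the half-site CGTCA. On both strands, TCACGTCA was present in the same 250 bases of 0.350% of 32851 RefSeq promoters, the half-site TGACG in 17.8%, the full element in 1.55% and the E-box CACGTG in 6.02%. The exon I window held none of these letters.

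All 5 Bdnf transcripts overlapped between the ages. Bdnf-205, from exon VI, was at 2.51, 3.84 and 5.13 FPKM in 3M and at 5.15, 5.60 and 4.07 FPKM in 22M. It had the largest positive estimate of the 5, 0.37 on the log2 scale (SE 0.268, limma adjusted p = 0.530). Bdnf-209, from exon IV, was at 2.77, 5.10 and 3.89 FPKM in 3M and at 2.68, 3.39 and 4.88 FPKM in 22M, so each group had a library near the bottom and one near the top. Bdnf-201, from exon I, ranged from 2.18 to 3.41 FPKM over all libraries, and its log2 fold change was 0.08. The exon II transcripts were the lowest, Bdnf-207 at 0.359 to 1.15 FPKM and Bdnf-210 at 0.604 to 1.54 FPKM.

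Exons IV and VI together held most of the Bdnf signal. The exon VI share was 28.0%, 28.7% and 36.0% in 3M and 42.7%, 40.3% and 32.5% in 22M. The highest 3M library therefore exceeded the lowest 22M library, and the mean difference of 7.58 percentage points gave a two-sided exact permutation p of 0.2, where 0.1 is the smallest that 3 against 3 allows. The exon IV share differed by −3.58 points (exact p = 0.6), the exon II share by −3.56 points (exact p = 0.3) and the exon I share by −0.449 points (exact p = 1.0). Of the exon II transcripts, Bdnf-207 averaged 0.78 FPKM in 3M and 0.48 FPKM in 22M. Only its 3M mean reached the 0.5 FPKM needed for listing. The listing thus favoured a higher 3M share of exon II, and the exact p cannot serve as a test of that share. After adjustment over the 11 shares compared for all members, no p was below 0.367. The size of the share in J11 did not set it apart for exon VI or exon IV, in contrast to the summed level of the gene.

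**Figure D3:**
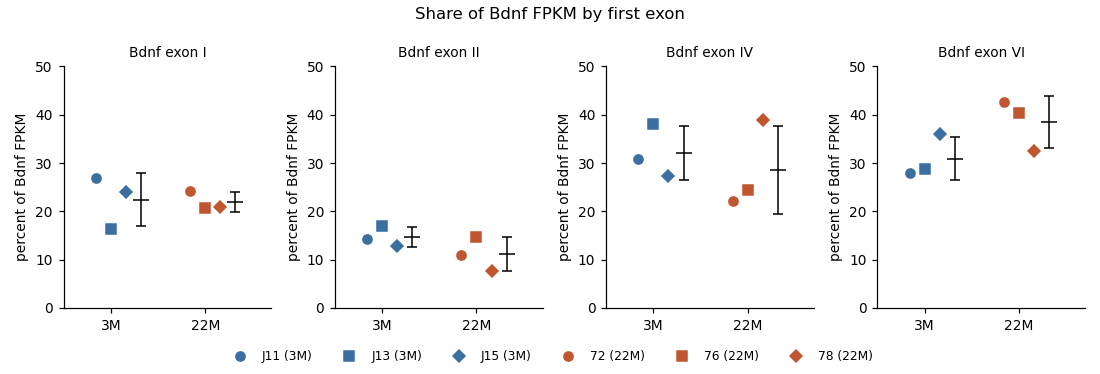
Percent of the Bdnf FPKM (vertical axes, 0 to 50) in transcripts that start at exon I, II, IV or VI, in each library, with 3M in blue and 22M in orange; the black bar is the mean and its whiskers are the SD of 3 libraries. The groups overlap for all 4 first exons, and the exon VI means were 30.9% in 3M and 38.5% in 22M.

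Ntrk2, on chromosome 13 (chr13:58806569-59133970, plus strand), had the highest level of the 6 genes, above 96.3% of the genes tested. It was at 98.9, 82.7 and 81.2 FPKM in 3M and at 112.7, 111.4 and 107.6 FPKM in 22M. All 22M libraries were above all 3M libraries, and J11 came closest to them. The means were 87.6 ± 9.79 and 110.5 ± 2.64 FPKM (SD, n = 3 each), a difference of 0.34 on the log2 scale (SE 0.0949, 95% interval 0.11 to 0.57). With a limma adjusted p of 0.0886 the difference did not pass, and without J11 it was 0.43 (adjusted p = 0.0931). Long genes and transcripts as a class were higher in 22M in these libraries. The rank correlation of log2 fold change with length was 0.516 across 13027 gene sums and weaker, 0.204, across 23582 single transcripts. These features are not independent replicates and share the 6 libraries. After a correction for length and GC content the log2 fold change of Ntrk2 was 0.05 (adjusted p = 0.809). With quantile normalization it was 0.50, and its adjusted p of 0.0451 passed.

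The 6 listed Ntrk2 transcripts share the coding exon that precedes their different ends, and the end decides whether the receptor carries a kinase. The bases that follow the last shared exon are shown for each kind of ending, since the readings of full-length and truncated TrkB rest on them (GENCODE vM21, GRCm38, plus strand). They lie at chr13:58985802-58985990 for Ntrk2-201, chr13:58932023-58932060 for Ntrk2-202, chr13:58878339-58878424 for Ntrk2-205, chr13:58887192-58887199 for Ntrk2-208 and chr13:58887271-58887347 for Ntrk2-209. Capitals mark the docking site for the adaptor Shc in Ntrk2-201, which continues to the kinase, and the stop codon in the others.
Ntrk2-201: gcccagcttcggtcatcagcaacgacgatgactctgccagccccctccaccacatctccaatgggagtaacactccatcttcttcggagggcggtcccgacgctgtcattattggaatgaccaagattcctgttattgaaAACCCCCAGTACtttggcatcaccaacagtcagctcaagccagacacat
Ntrk2-202: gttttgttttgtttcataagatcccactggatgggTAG
Ntrk2-205: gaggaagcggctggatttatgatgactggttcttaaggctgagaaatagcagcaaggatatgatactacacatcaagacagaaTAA
Ntrk2-208: cgtgcTAG
Ntrk2-209: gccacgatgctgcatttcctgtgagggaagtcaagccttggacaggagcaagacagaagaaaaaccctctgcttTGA
Ntrk2-202 is TrkB.T1: its 35 coding bases complete a split codon and add 11 whole codons before the stop. Ntrk2-204 ends with the same exon. The full-length Ntrk2-201 codes for 821 amino acids, Ntrk2-202 for 476 and Ntrk2-208 for 466. No stretch of 20 bases of the endings that are long enough occurred in a transcript of another gene.

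Both main forms of TrkB were higher in every 22M library than in any 3M library. Full-length Ntrk2-201 was at 21.1, 21.3 and 22.1 FPKM in 3M and at 24.95, 29.5 and 32.8 FPKM in 22M. The 3M libraries were nearly equal and the groups did not overlap, and Ntrk2-201 differed by 0.42 on the log2 scale (SE 0.117, limma adjusted p = 0.177). TrkB.T1 (Ntrk2-202) was at 69.3, 51.9 and 54.6 FPKM in 3M and at 82.3, 76.5 and 70.0 FPKM in 22M. The groups were again apart, but J11 nearly reached the lowest 22M library, and the log2 fold change was 0.39 (SE 0.133, limma adjusted p = 0.233). Neither passed the adjusted test, and with the length and GC correction they were 0.08 and 0.12. Without J11 they were 0.41 and 0.51. The astrocyte markers given above moved in both directions. Slc1a2, Gfap, Aqp4 and Slc4a4 were higher and Aldh1l1, S100b and Aldoc lower in every 22M library. The part of the astrocyte markers in the TrkB.T1 level was not tested.

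The shares of both forms overlapped between the ages. TrkB.T1 held 71.0%, 63.2% and 68.1% of the Ntrk2 signal in J11, J13 and J15 and 73.7%, 69.5% and 65.8% in 22M. Full-length TrkB held 21.4%, 25.8% and 27.2% in 3M and 22.2%, 26.4% and 30.5% in 22M. The mean differences were 2.22 points (exact permutation p = 0.5) and 1.59 points (exact p = 0.6).

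Among the minor truncated forms, Ntrk2-208 went the other way. It was at 3.998, 6.57 and 2.98 FPKM in 3M and at 1.52, 1.27 and 0.392 FPKM in 22M. Every 22M library was below every 3M library. The log2 fold change was −1.70 (SE 0.420, limma adjusted p = 0.154), past the cut-offs of the study but not the adjusted one. It was −1.71 after the length and GC correction and −1.75 without J11. Ntrk2-209 was at 0.845 to 1.08 FPKM in all libraries with a log2 fold change of 0.03. It has the same outer ends and number of exons as Ntrk2-208, and is 2640 bases long against 2719. Its last coding exon begins at base 58887271 in place of 58887192. The quantifier is not stated, so how it divided reads between Ntrk2-208 and Ntrk2-209 is unknown. Ntrk2-205 was at 2.66, 1.47 and 0.0460 FPKM in 3M and 2.15 to 2.72 FPKM in 22M (log2 fold change 0.94, SE 0.653, adjusted p = 0.508), and its 3M libraries spread over the full range. Ntrk2-204 stayed below 0.90 FPKM throughout. The non-T1 truncated forms together held 4.76% to 11.04% of the signal in 3M and 3.71% to 4.19% in 22M, without overlap, at the smallest exact p the design allows (0.1, adjusted 0.367).

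Ntrk3, on chromosome 7 (chr7:78175959-78738012, minus strand), gave gene levels that overlapped between the ages and transcripts that differed in direction. The gene was at 22.5, 23.9 and 23.5 FPKM in 3M and at 21.7, 25.6 and 23.3 FPKM in 22M, so the groups lay over each other. The log2 fold change was 0.01 with a 95% interval of −0.21 to 0.23 (limma adjusted p = 0.956). After the length and GC correction it was −0.39 (adjusted p = 0.130), and without J11 −0.02. The 3 listed transcripts are TrkC with its kinase (Ntrk3-201, 19703 bases and 825 codons), truncated TrkC (Ntrk3-202, 3977 bases and 612 codons) and a kinase form with 14 more codons (Ntrk3-205, 2678 bases). The exons that set them apart are the last coding exon of Ntrk3-202, with the stop codon in capitals, and the insert of Ntrk3-205 (minus strand, chr7:78302629-78302747 and chr7:78204103-78204144).
Ntrk3-202: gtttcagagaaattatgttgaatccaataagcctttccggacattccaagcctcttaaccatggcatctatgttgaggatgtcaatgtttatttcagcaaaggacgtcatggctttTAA
Ntrk3-205 insert: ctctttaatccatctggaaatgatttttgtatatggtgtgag
The insert of 42 bases lies in the kinase domain, and such insertions are known to lower signalling by TrkC.

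The kinase form Ntrk3-201 was at 5.30, 6.43 and 7.93 FPKM in 3M and at 9.46, 11.9 and 12.3 FPKM in 22M. All 22M libraries were above all 3M libraries, and J11 was the lowest of the 6. The log2 fold change was 0.74 (SE 0.185, limma adjusted p = 0.156), past the cut-offs of the study only. Its transcript is among the longest in the table. The 175 tested transcripts of 12000 bases or more had a median log2 fold change of 0.50 with quartiles of 0.11 and 0.83, so Ntrk3-201 lay within the middle of that class. With the length and GC correction its log2 fold change was 0.17 (adjusted p = 0.575), and without J11 it was 0.61.

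The other TrkC transcripts were lower on average in 22M. Truncated Ntrk3-202 was at 15.98, 12.1 and 14.5 FPKM in 3M and at 11.4, 13.03 and 10.5 FPKM in 22M, with overlap (log2 fold change −0.28, SE 0.145, adjusted p = 0.390). The insert form Ntrk3-205 was at 1.23, 5.39 and 1.07 FPKM in 3M and at 0.839, 0.655 and 0.561 FPKM in 22M. Its groups did not overlap, but J13 alone carried most of the 3M mean, and the log2 fold change of −1.09 (SE 0.544, adjusted p = 0.366) became −0.48 without J13. The share of the kinase forms in all Ntrk3 was 29.0%, 49.4% and 38.2% in 3M and 47.5%, 49.1% and 55.1% in 22M, where J13 exceeded 2 of the 22M libraries (difference 11.7 points, exact permutation p = 0.3). This sum joins forms that differed in opposite directions. The insert form alone held 5.46%, 22.5% and 4.55% in 3M and 3.87%, 2.56% and 2.40% in 22M, without overlap (exact permutation p = 0.1, adjusted 0.367). Ntrk3-201 alone held 23.6%, 26.9% and 33.7% in 3M and 43.7%, 46.5% and 52.7% in 22M, so J13 reached the 22M range only with the insert form. This last split was added after the values were seen and was not tested.

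**Figure D4:**
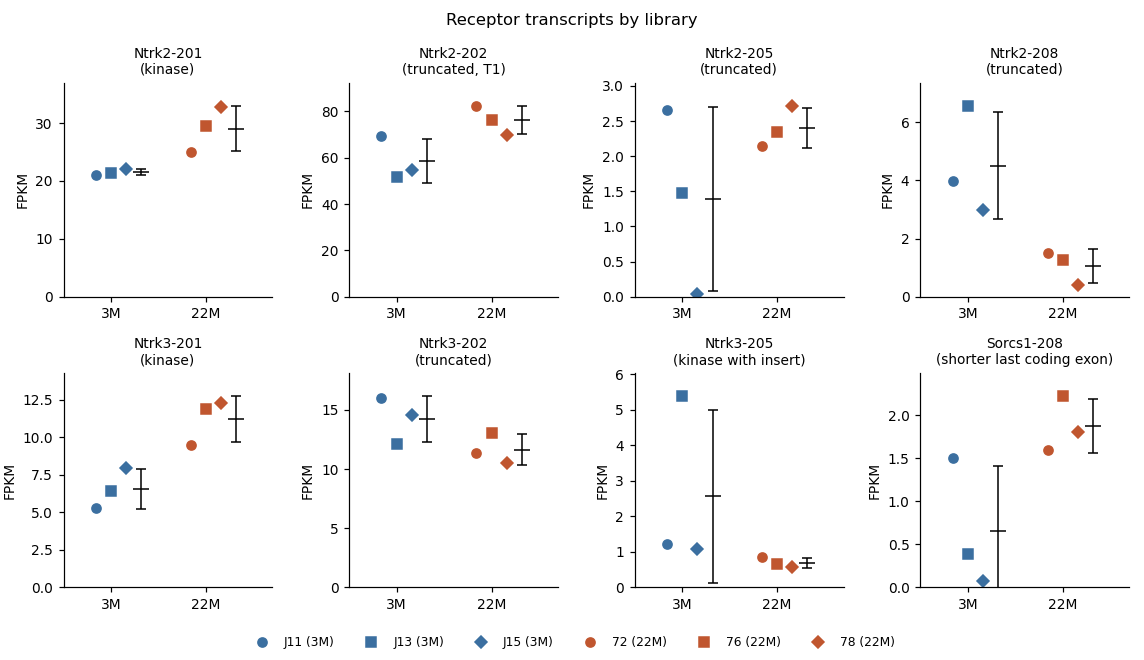
FPKM (vertical axes, from 0) of 8 receptor transcripts in each library, with 3M in blue and 22M in orange; the black bar is the mean and its whiskers are the SD of 3 libraries, cut at 0. Ntrk2-201, Ntrk2-202, Ntrk3-201 and Sorcs1-208 separate upward and Ntrk2-208 and Ntrk3-205 downward, and the high 3M value of Ntrk3-205 is J13.

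Sort1, on chromosome 3 (chr3:108284082-108361511, plus strand), encodes the sortilin that carries BDNF to regulated secretion and binds the precursors at the cell surface. It was at 65.0, 68.9 and 83.4 FPKM in 3M and at 83.3, 85.7 and 87.3 FPKM in 22M. The highest 3M library, J15, was level with the lowest 22M library. Its log2 fold change was 0.25 (SE 0.106, limma adjusted p = 0.196), and it was −0.01 after the length and GC correction and 0.17 without J11. The 2 listed transcripts differ by an exon of 33 codons in Sort1-203 (chr3:108355472-108355570), shown because it is the one coding difference between them.
Sort1-203 exon: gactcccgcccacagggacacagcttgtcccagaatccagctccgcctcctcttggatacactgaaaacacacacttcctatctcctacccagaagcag
Sort1-201, without this exon, was at 50.2 to 68.8 FPKM over all libraries (log2 fold change 0.09). Sort1-203 was at 13.8, 10 and 21.2 FPKM in 3M and at 33.1, 20.4 and 18.5 FPKM in 22M, with overlap (log2 fold change 0.68, SE 0.337, adjusted p = 0.366). Its share was 14.5% to 25.4% in 3M and 21.2% to 39.8% in 22M (exact p = 0.5), and the library 72 stood at the top.

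Sorcs1, on chromosome 19 (chr19:50143299-50678646, minus strand), encodes a sorting receptor that is known to act on the trafficking of TrkB and other synaptic membrane proteins, and was the lowest of the members. It was at 2.96, 0.730 and 0.480 FPKM in 3M and at 2.12, 2.62 and 2.18 FPKM in 22M. J11 was above all 22M libraries, and the other 3M libraries were below all of them. On the log2 scale 22M was higher by 0.80 (SE 0.457, limma adjusted p = 0.309) and 1.35 without J11 (adjusted p = 0.0801). The part of the striatal marker level of J11 in this value was not tested. The 2 listed transcripts have different last coding exons, which form the end of the cytoplasmic tail and are shown with the stop codon in capitals (minus strand, chr19:50143940-50144147 for Sorcs1-205 and chr19:50151216-50151351 for Sorcs1-208).
Sorcs1-205: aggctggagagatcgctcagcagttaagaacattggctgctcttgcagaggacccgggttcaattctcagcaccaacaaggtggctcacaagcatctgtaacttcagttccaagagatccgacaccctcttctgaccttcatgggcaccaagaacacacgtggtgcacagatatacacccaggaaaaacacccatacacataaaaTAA
Sorcs1-208: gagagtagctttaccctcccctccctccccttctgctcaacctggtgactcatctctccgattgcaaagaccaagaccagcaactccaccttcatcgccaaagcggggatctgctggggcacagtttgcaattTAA
For Sorcs1-205, 39 of 189 stretches of 20 bases occurred also in transcripts of other genes, 43 genes in all, so that reads from this exon can match elsewhere and its level is uncertain. For Sorcs1-208 none of 117 did.

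Sorcs1-208 was at 1.502, 0.382 and 0.0694 FPKM in 3M and at 1.598, 2.22 and 1.81 FPKM in 22M. The groups were apart by a small margin, between J11 and the library 72. The estimate was 1.24 on the log2 scale (SE 0.485, limma adjusted p = 0.276), past the cut-offs of the study only, and 1.74 without J11. Sorcs1-205 was at 1.45, 0.347 and 0.411 FPKM in 3M and at 0.518, 0.398 and 0.368 FPKM in 22M, and only J11 exceeded the 22M range. Its share of Sorcs1 was 49.2%, 47.6% and 85.6% in 3M and 24.5%, 15.2% and 16.9% in 22M, a difference of −41.9 points at the smallest exact p of 0.1 (adjusted 0.367). In 5 of the 6 libraries this transcript was below 0.52 FPKM, where shares rest on little signal. Its mean was 0.737 FPKM in 3M, 0.379 FPKM in 3M without J11, and 0.428 FPKM in 22M. Only the 3M mean with J11 reached the 0.5 FPKM needed for listing. The listing itself thus favoured a higher 3M share, and the exact p cannot serve as a test of it.

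Over the 19 transcripts, 0 passed the adjusted p, against 0.207% of 23637 tested (0.123% higher and 0.0846% lower). At an unadjusted p below 0.05 there were 5, against 17.3% of all. The cut-offs of the study called 2 higher (Ntrk3-201 and Sorcs1-208) and 1 lower (Ntrk2-208), where 9.58% of all transcripts were called, 5.03% higher and 4.54% lower. Groups did not overlap for 4 higher and 2 lower transcripts (background 11.5% and 14.5%). Without J11, 0 of 19 passed the adjusted p, and the lowest was 0.154. Without the library 78 0 of 19 passed as well, with a lowest value of 0.281.

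**Figure D5:**
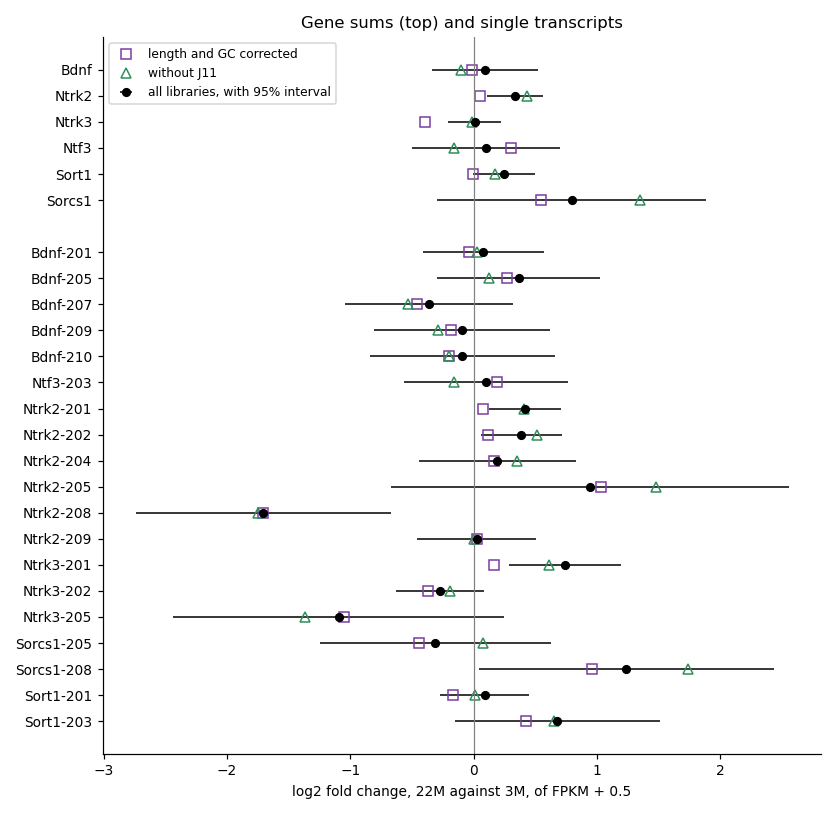
Log2 fold change of FPKM + 0.5, 22M against 3M (horizontal axis), for the 6 genes and 19 transcripts; black points with 95% intervals are the limma fit to all libraries, purple squares the length and GC corrected value and green triangles the value without J11. Ntrk2-208 stays at about −1.7 in all 3, Ntrk3-201 moves from 0.74 to 0.17 with the correction, and Sorcs1 moves from 0.80 to 1.35 without J11.

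Among the other receptors of this system, none of Ngfr, Sorl1, Sorcs3 and Sorcs2 passed the adjusted test. Ngfr, the p75 receptor, was at 2.23, 0.788 and 0.681 FPKM in 3M and at 0.483 to 0.968 FPKM in 22M, so J11 was again apart. Sorl1, a Vps10p receptor known to direct TrkB traffic, was at 23.0, 24.7 and 30.2 FPKM in 3M and at 34.4, 40.3 and 39.6 FPKM in 22M without overlap (log2 fold change 0.55, limma adjusted p = 0.0642), and its length-corrected value was 0.14. Sorcs3 was at 5.84 to 6.64 and 7.04 to 7.33 FPKM, also without overlap (0.20, adjusted p = 0.252), and Sorcs2 overlapped at 8.26 to 11.2 FPKM over all libraries. None of the 12 tested genes for processing and release of the precursors passed. Furin, a convertase of the secretory pathway, was at 8.54 to 9.37 FPKM in every library, and Pcsk1, the convertase of regulated secretion, had a log2 fold change of 0.43 (adjusted p = 0.193).

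Downstream of the Trk receptors, 1 of 49 tested adaptors and signalling genes fell and 0 rose, against 1.21% and 0.92% of all genes tested. Their median log2 fold change was 0.01, against −0.05 for all genes tested. The gene that fell was Hras, a small GTPase that couples the receptors to the MAP kinase cascade. It was at 30.7, 22.3 and 27.6 FPKM in 3M and at 12.8, 15.8 and 14.2 FPKM in 22M. All 22M libraries were below all 3M libraries, and the log2 fold change of −0.88 had a limma adjusted p of 0.0478. The call was lost when any 1 library was left out (limma adjusted p = 0.0955 without J11) and with the length and GC correction (−0.67, adjusted p = 0.115). Shc3, a neuronal Shc adaptor that can dock at the site marked in Ntrk2-201, was at 11.7, 6.39 and 7.17 FPKM in 3M and at 17.0, 17.1 and 17.2 FPKM in 22M. The groups were far apart and the 22M libraries nearly equal, with a log2 fold change of 1.03 (adjusted p = 0.0578); without J11 it was 1.28 and passed (adjusted p = 0.0301). Sos2, an exchange factor for Ras, had a log2 fold change of 0.86 and Frs2, a docking adaptor, of 0.51, at adjusted p of 0.0578 and 0.0558. Among 18 tested partners of the p75 receptor 0 were called.

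Among 19 tested regulators of Bdnf transcription, 2 rose and 1 fell, against 0.92% and 1.21% of all genes tested. The median log2 fold change was 0.26 (0.12 after the length and GC correction), against −0.05 (−0.02) for all genes. Mef2c, an activity-regulated factor of neurons, rose from 17.5, 18.9 and 14.7 FPKM in 3M to 29.9, 26.0 and 35.7 FPKM in 22M (log2 fold change 0.82, limma adjusted p = 0.0498). Its relative Mef2a fell from 33.3, 30.0 and 36.6 FPKM to 19.4, 21.5 and 22.5 FPKM (−0.64, adjusted p = 0.0479). These MEF2 genes moved in opposite directions, each without overlap between the ages. Ep300, a histone acetyltransferase and co-activator, had a log2 fold change of 0.73 (adjusted p = 0.0491). These p-values lay close to the threshold, and without J11 none of the list passed, with limma adjusted p of 0.108 for Mef2c, 0.102 for Mef2a and 0.102 for Ep300, while the log2 fold changes were 0.84, −0.64 and 0.76. After the length and GC correction Mef2a still passed (adjusted p = 0.0163), while Mef2c (0.121) and Ep300 (0.154) did not. Creb1, whose protein binds cyclic AMP response elements, was at 2.45 to 6.01 FPKM in 3M and 4.44 to 7.23 FPKM in 22M.

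Of 16 activity-induced genes, a class to which Bdnf belongs, 3 fell and 0 rose, against 1.21% and 0.92% of all genes tested. The median log2 fold change was −0.31, against −0.05 for all genes. Junb was at 45.7, 58.4 and 49.9 FPKM in 3M and at 28.6, 29.2 and 27.6 FPKM in 22M (log2 fold change −0.83, limma adjusted p = 0.0364). The 22M libraries were tightly grouped far below the 3M libraries. Egr4 (−1.14, adjusted p = 0.0407) and Egr2 (−0.88, adjusted p = 0.0479), both zinc finger transcription factors, were the others called. With the length and GC correction none of the 3 passed, at limma adjusted p of 0.120 for Junb, 0.0614 for Egr4 and 0.0679 for Egr2. Without J11 none of the 16 passed, although the median was −0.38, and Junb was then at an adjusted p of 0.0505. Bdnf exons I and IV, the starts that respond to activity, overlapped between the ages as given above.

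The genes whose pattern over the 6 libraries was nearest to each member were sought among 12070 genes averaging 1 FPKM or more, as the root mean square difference of centred log2 values. This distance grows with the spread of the member itself and is not compared between members. The closest to Bdnf was Grik4, a kainate receptor subunit, at 0.0384, followed by Mturn and Mapk11. The closest to Ntf3 was Cpne4 at 0.0669, followed by Drd5 and Neurod6. Grik4 and Neurod6 shared the low value of J11, at 5.54 and 72.4 FPKM against at least 7.63 and 121.0 FPKM in the others. The closest to Ntrk2 were Vcan at 0.0213, Kif5a and Gab2, to Ntrk3 Mapk8ip2, Plpp6 and Hspa13, and to Sort1 Lrrc4, Lin7c and Ggcx. For Sorcs1 it was Plxnb3 at 0.170, then Epb41l2 and Osbpl9, all of them lower in J13 and J15 than in the other 4 libraries. These low values, like those of Grik4 and Neurod6 in J11, follow from the search in the same 6 libraries and are no separate observation.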

How the data were processed

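Poly(A) mRNA was enriched from total RNA of 6 hippocampus libraries with oligo magnetic beads, and stranded libraries were made with a KAPA kit. The deposited values were FPKM per transcript, made by the authors; their processing notes name HISAT2 and GRCm38 (mm10), and the quantifier and annotation release are not stated there or in the methods. The table held protein-coding transcripts that averaged 0.5 FPKM or more in an age group, and single reads could not be recovered from low values, so the depth per library is unknown. Transcripts were matched to GENCODE vM21 (99.7%) and summed per gene. Features averaging 0.5 FPKM or more were fitted on log2(FPKM + 0.5) with limma 3.58.1 in R 4.3.3 (mean-variance trend, no covariate), after a check on simulated data; shares were compared with two-sided exact permutation tests in SciPy 1.17.1. Alternatives covered pseudocount, filter, scaling, variance model, a spline correction for length and GC content, and leaving out each library. The rule for named genes took all members and their transcripts, the other neurotrophins and receptors (some are not reported here), up to 6 genes of lowest p per pathway list and 3 nearest patterns per member; Furin and Creb1 were added after their values were seen. The members and lists were chosen with earlier results of these data known.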

Additional observations from a re-analysis of the deposited data

How the results depend on the processing

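Over 9 alternative settings and 6 fits that each left out one library, the log2 fold changes of Sorcs1 and Ntrk2 kept their sign. Only quantile normalization brought a member past the adjusted threshold, Ntrk2 at 0.50. With the length and GC correction the sign turned for Bdnf (−0.00992), Ntrk3 (−0.39), Sort1 (−0.00818), Bdnf-201 (−0.0362), Sort1-201 (−0.17), Traf6 (−0.0116) and Arhgdia (0.0376), and with quantile normalization for Pcsk2 (0.0199) and Ntrk2-209 (−0.0319). Leaving out one library gave log2 fold changes from −0.11 to 0.21 for Bdnf, −0.16 to 0.33 for Ntf3 and Ntf3-203, −0.0512 to 0.0657 for Ntrk3, −0.15 to 0.0301 for Sorcs2, −0.0326 to 0.24 for Bdnf-201, −0.30 to 0.10 for Bdnf-209, −0.36 to 0.0835 for Bdnf-210, −0.0197 to 0.10 for Ntrk2-209 and −0.53 to 0.0756 for Sorcs1-205. The cause of these changes was not tested.

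The number of all genes past the adjusted p was 278, and 37 without the variance trend, 0 with the own variance of each gene by a linear model (797 then passed the cut-offs of the study at an unadjusted p), 45 with the length and GC correction, and 2 to 546 with one library left out. The number past the cut-offs of the study was 1082, and 683 with that correction. For transcripts 49 passed, and 23 to 77 with one library left out. The share of higher genes among calls by the study cut-offs was 49.2%, against 59.7% with median-of-ratios scaling and 61.4% with the correction. Each of the 7 calls among the pathway and activity-induced genes named (Hras, Mef2a, Mef2c, Ep300, Junb, Egr4 and Egr2) was lost when any one library was left out, except that Ep300, Junb and Egr4 still passed without J15. Leaving out one library moved the share differences from −0.47 to 3.69 points for full-length Ntrk2, from −3.50 to 1.84 for Bdnf exon I and from −11.0 to −2.06 for the Ntrk3 insert form. No paired analysis was possible because the library names carry no number shared between the ages. With 3 libraries per group and unknown depth, the precision of low values such as those of Sorcs1 cannot be stated.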
